A study of Homo sapiens with 8 samples.

Results

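A set of 10 named genes of the ERBB2 interval of human chromosome 17 was followed in MDA-MB-231 cells: PSMD3, ERBB2, GRB7, MIEN1, STARD3, ORMDL3, MED1, MED24, MSL1 and CASC3. They were picked by gene name, and all 10 are listed among the 16383 genes of the deposited count table and among the 16383 of the FPKM table. MDA-MB-231 is an established breast cancer line without ERBB2 amplification. The cells received 5 µM c-di-GMP (4 libraries) or the vehicle, 1×PBS (4 libraries), for 24 h, in DMEM with serum and antibiotics in both groups. The title of the series names PSMD3 as a target of c-di-GMP, a bacterial cyclic dinucleotide that mammalian STING also binds. The question here is what the RNA of PSMD3 and of the genes beside it did. The libraries of a group are not stated to be separate cultures, so p-values measure the spread between libraries, which may be technical.

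PSMD3 encodes a scaffold subunit of the 19S regulatory particle, the cap of the 26S proteasome that recognises ubiquitinated proteins and unfolds them. ERBB2 encodes HER2, a receptor tyrosine kinase without a known ligand of its own, and GRB7 an adaptor that binds activated receptors. In HER2-positive breast tumours one amplified segment commonly carries ERBB2 with STARD3, MIEN1 and GRB7, and sometimes reaches further along the chromosome. STARD3 transfers cholesterol at late endosomes, ORMDL3 restrains serine palmitoyltransferase in sphingolipid synthesis, MED1 and MED24 are Mediator subunits, MSL1 is the scaffold of a histone acetyltransferase complex, and CASC3 is part of the exon junction complex.

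In the GENCODE v29 coordinates, on GRCh38, the 10 genes lie between positions 39404285 and 40172183 of chromosome 17, a span of 767899 bases. Along the chromosome MED1 comes first, at 39404285 to 39451286 on the minus strand, followed by STARD3 at 39637065 to 39663484 on the plus strand. ERBB2 occupies 39687914 to 39730426 on the plus strand, and MIEN1 lies on the minus strand at 39728496 to 39730787. GRB7 follows at 39737927 to 39747291 on the plus strand, and ORMDL3 at 39921041 to 39927601 on the minus strand. PSMD3 lies on the plus strand at 39980797 to 39997960, starting 250371 bases after the end of ERBB2. MED24 is on the minus strand at 40019097 to 40061215. MSL1, at 40122298 to 40136916, and CASC3, at 40140318 to 40172183, are both on the plus strand. MIEN1 and ERBB2 share 571 exon bases on opposite strands, which is 24.9% of the exon bases of MIEN1. The use of strand in counting is not given in the sources used here, so counts of MIEN1 and ERBB2 in that overlap cannot be told apart. ERBB2 shares a further 194 exon bases with PGAP3 on the opposite strand, where the same holds.

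RefSeq promoter windows of 300 bases on GRCh38.p14 were at hand for 8 of the 10 genes. The window of PSMD3 is shown because PSMD3 is the named target, and those of ERBB2, ORMDL3 and MIEN1 because these genes were called in some fits below. MED24 and MSL1 were also called in some fits, but their windows are not shown. Capitals mark matches on either strand to the antioxidant response element core (TGACNNNGC), the CCAAT box (CCAAT) and the GC box (GGGCGG).
PSMD3, chr17:39980557-39980856, plus strand: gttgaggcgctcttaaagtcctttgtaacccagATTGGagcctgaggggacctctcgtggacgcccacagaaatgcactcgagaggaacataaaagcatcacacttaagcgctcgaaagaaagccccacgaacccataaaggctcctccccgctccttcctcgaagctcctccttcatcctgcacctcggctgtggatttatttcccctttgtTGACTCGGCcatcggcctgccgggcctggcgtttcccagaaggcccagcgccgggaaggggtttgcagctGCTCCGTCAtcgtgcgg
ERBB2, chr17:39687844-39688143, plus strand: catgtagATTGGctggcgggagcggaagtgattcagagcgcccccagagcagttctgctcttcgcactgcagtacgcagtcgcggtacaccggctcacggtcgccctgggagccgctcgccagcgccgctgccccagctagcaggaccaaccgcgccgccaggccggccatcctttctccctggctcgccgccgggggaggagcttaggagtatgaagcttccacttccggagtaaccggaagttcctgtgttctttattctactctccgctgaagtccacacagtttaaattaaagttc
ORMDL3, chr17:39927552-39927851, minus strand: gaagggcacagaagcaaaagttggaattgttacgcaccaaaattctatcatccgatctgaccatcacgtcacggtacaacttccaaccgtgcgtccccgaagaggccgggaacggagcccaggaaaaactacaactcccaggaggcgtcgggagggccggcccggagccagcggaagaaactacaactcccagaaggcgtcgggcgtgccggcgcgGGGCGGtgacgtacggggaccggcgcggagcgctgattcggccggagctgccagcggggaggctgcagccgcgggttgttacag
MIEN1, chr17:39730483-39730782, minus strand: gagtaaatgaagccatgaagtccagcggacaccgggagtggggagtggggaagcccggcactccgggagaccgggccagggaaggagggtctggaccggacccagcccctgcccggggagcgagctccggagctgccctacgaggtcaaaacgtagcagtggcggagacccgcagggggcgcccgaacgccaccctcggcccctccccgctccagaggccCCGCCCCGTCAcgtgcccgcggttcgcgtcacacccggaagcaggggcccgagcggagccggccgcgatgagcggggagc

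The PSMD3 window held 2 matches to TGACNNNGC, at positions 214 and 284 from its 5′ end, and 1 to CCAAT at position 34. Among 35116 RefSeq promoter windows of the same length, 13.3% held TGACNNNGC on either strand, 34.6% held CCAAT and 45.0% held GGGCGG. The ERBB2 window held CCAAT at position 8, and the ORMDL3 window shown GGGCGG at position 217. The ERBB2 window contains the outermost annotated 5′ end of ERBB2 and lies wholly inside PGAP3, a minus-strand gene at 39671122 to 39696797. Its letters are therefore also those of PGAP3, and whether ERBB2 RNA starts there in these cells was not tested. RefSeq has 3 windows for ORMDL3, and the start site of the one shown is nearest the annotated 5′ end of the gene, while the others also hold GGGCGG. In the MIEN1 window GGGCGG at position 221 overlapped TGACNNNGC at position 223. None of the 10 windows found for the 8 genes held TATAAA, which 11.5% of all windows did. These matches describe the letters and are not binding sites shown by the data.

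Library totals over the listed genes ran from 16151360 to 18040010 counts. Vehicle replicate 3 stood apart from the other vehicle libraries, and its deviation followed gene length: the median log2 difference from the other vehicle libraries was 0.77 in the shortest of 5 equal classes of genes and -0.69 in the longest. Every result below is therefore given with all 8 libraries or with the 7 that exclude it. The mesenchymal markers VIM, CD44 and AXL were at 638 to 813, 842 to 891 and 1130 to 1320 CPM (counts scaled to library size) in the 7 libraries, whereas SPARC was at 0.173 to 1.03 CPM. The luminal markers ESR1, PGR and FOXA1 are not listed, while KRT19 was at 318 to 410 CPM. The other luminal or epithelial markers, GATA3, EPCAM, CDH1 and ERBB3, were at 1.97 to 15.9 CPM in the 7 libraries. In vehicle replicate 3 VIM was at 1460, CD44 at 691, AXL at 275 and KRT19 at 939 CPM. Fewer cells of a kind and less RNA per cell cannot be told apart in such bulk libraries.

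PSMD3 was the most abundant of the 10 genes per kilobase of gene length. Over the 7 libraries it averaged 47.0 ± 1.16 CPM per kilobase (SD, n = 7), a level above that of 94.4% of the genes tested. CASC3 followed at 19.3 ± 0.56, then MED1 at 15.5 ± 0.61, MED24 at 14.2 ± 0.95 and MSL1 at 13.7 ± 0.63 CPM per kilobase. STARD3 averaged 10.3 ± 0.64, ERBB2 9.41 ± 1.02, ORMDL3 8.18 ± 1.00 and MIEN1 6.95 ± 0.66 CPM per kilobase. GRB7 was last with 1.36 ± 0.30 CPM per kilobase. The order rests on the deposited gene length, which is that of all merged exons. It exceeds the longest transcript unevenly, with 10321 against 4930 bases for ERBB2 and 7330 against 5844 for MED1. An order by transcript length was not tested. The library ranges of neighbours in this order were separate for 4 of 9 pairs: PSMD3 and CASC3, CASC3 and MED1, MSL1 and STARD3, and MIEN1 and GRB7. The same pairs were separate in the deposited FPKM values. These divide the same counts by the same gene lengths and are not a second measurement.

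**Figure D1:**
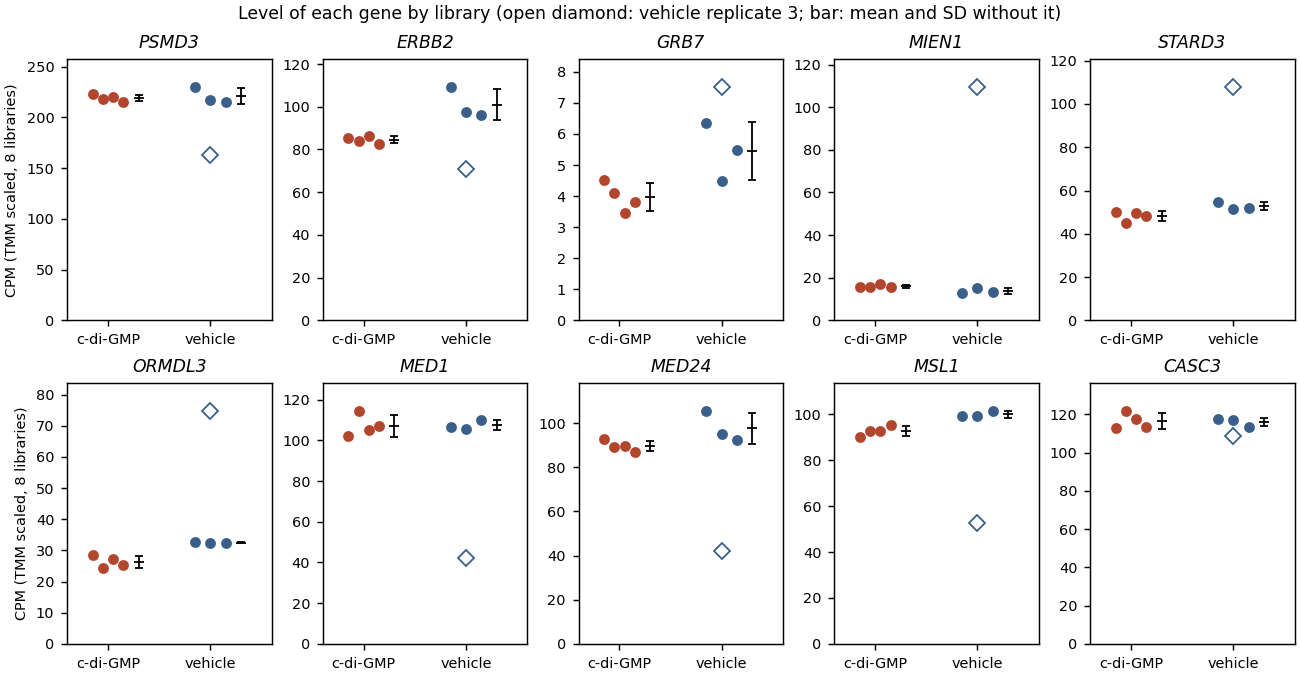
Level of each gene in each library in CPM, scaled by the trimmed mean of M-values (TMM) over 8 libraries, with c-di-GMP left of vehicle; points are libraries, the open diamond is vehicle replicate 3, and bars are the mean and SD without it. The diamond lies far above the other vehicle points for MIEN1 (109 CPM), STARD3 (108 CPM) and ORMDL3 (74.8 CPM), and far below them for MED1 (42.3 CPM), MED24 (42.3 CPM) and MSL1 (52.5 CPM).

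PSMD3 RNA did not change detectably. It had 235.8, 232.4, 233.0 and 227.4 CPM in the c-di-GMP libraries, against 244.6, 229.6 and 229.3 CPM in vehicle replicates 1, 2 and 4. The groups overlap, with vehicle replicate 1 the highest library. The log2 fold change was -0.01 ± 0.04 (SE; 95% interval -0.10 to 0.07; adjusted p = 0.826, edgeR quasi-likelihood test). With all 8 libraries, where vehicle replicate 3 had 163.0 CPM, it was 0.09 ± 0.13 (adjusted p = 0.800). PSMD3 did not pass the threshold of adjusted p under 0.05 in any of the 25 alternatives run for the 7 libraries, whose log2 fold changes ran from -0.03 to 0.06.

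Several other subunits of the 19S particle changed. Of the 18 partners of PSMD3, all tested in the 7 libraries, 9 were higher with c-di-GMP and 1 was lower, and their median log2 fold change was 0.10, against 0.00 over all genes. Among all 15647 genes tested, 29.6% were called, 13.5% higher and 16.2% lower. SEM1, a small acidic lid subunit, averaged 51.3 ± 1.37 CPM with c-di-GMP and 42.9 ± 3.58 CPM with vehicle (log2 fold change 0.26 ± 0.06, adjusted p = 0.00200, edgeR). PSMC2, a subunit of the ATPase ring, and PSMD1, a scaffold of the base, rose by 0.17 each on the log2 scale (adjusted p = 0.00305 and 0.00338, edgeR). ADRM1, a ubiquitin receptor, fell by 0.20 (adjusted p = 0.00283, edgeR).
These calls moved with a correction for the GC content of transcripts, introduced below. With it 6 partners were higher and 0 lower, beside 8.58% and 6.62% of all genes. SEM1, PSMC2 and PSMD1 then missed the threshold (adjusted p = 0.181, 0.406 and 0.0521, edgeR), and ADRM1 turned to a rise of 0.12 (adjusted p = 0.0287, edgeR). Per kilobase of deposited gene length PSMD3 ranked 7th of the 19 subunits. With all 8 libraries edgeR called 0 of 18, and 0 in each of the other lists below.

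Across the 10 genes, 0 were called higher and 3 lower with c-di-GMP in the 7 libraries, namely ERBB2, GRB7 and ORMDL3. That count stands beside 29.6% of all genes called in either direction and 16.2% called lower. The CPM of the groups did not overlap for 6 of the 10, with MIEN1 higher and MED24, MSL1, ERBB2, STARD3 and ORMDL3 lower, as was so for 35.7% of all genes, 17.3% higher and 18.3% lower. The median log2 fold change of the 10 was -0.12, against 0.00 over all genes. With all 8 libraries 0 of 10 and 0% of 15415 genes were called by edgeR. An unadjusted p under 0.05 (edgeR) was found for 960 of the 15415 genes, GRB7 and ORMDL3 among them. Vehicle replicate 3 was the highest library for both, with 7.51 CPM of GRB7 and 74.8 CPM of ORMDL3. DESeq2 called 122 genes in the 8 libraries, none of the 10 among them, but it gave MIEN1 no p-value. limma-voom called 0.

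**Figure D2:**
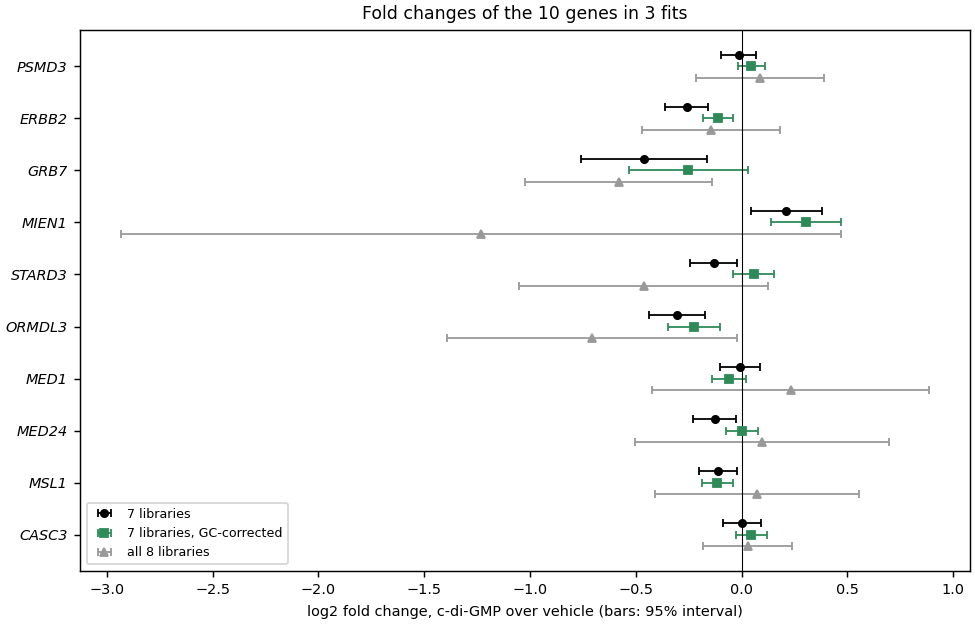
Log2 fold change of each gene, c-di-GMP over vehicle, with 95% intervals, in the 7 libraries without and with GC correction and in all 8. ORMDL3 and ERBB2 lie below 0 in both fits of 7 libraries, MIEN1 lies above 0 there, and the intervals of all 8 libraries are wider.

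ERBB2, the receptor gene, had 90.4, 89.1, 91.3 and 87.3 CPM in the c-di-GMP libraries, against 116.1, 103.1 and 102.4 CPM in vehicle replicates 1, 2 and 4. Every c-di-GMP library lies below every one of these vehicle libraries, and vehicle replicate 1 is the highest. The means were 89.5 ± 1.71 CPM with c-di-GMP (SD, n = 4) and 107.2 ± 7.73 CPM with vehicle (SD, n = 3). This gave a log2 fold change of -0.26 ± 0.05 (SE; adjusted p = 2.8e-04, edgeR). Vehicle replicate 3, with 71.1 CPM on the scale of 8 libraries, lies below all c-di-GMP libraries. With it the log2 fold change was -0.15 ± 0.14 (adjusted p = 0.696, edgeR).

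Among receptors and adaptors related to ERBB2 and GRB7, with chaperones of HER2, 1 of the 10 tested was higher and 2 lower in the 7 libraries, near the 29.6% of all genes called. The median log2 fold change was -0.05. ERBB3, a kinase-impaired partner receptor of HER2, averaged 7.41 ± 0.67 CPM with c-di-GMP and 9.87 ± 1.62 CPM with vehicle (log2 fold change -0.41 ± 0.12, adjusted p = 0.00895, edgeR). SHC1, an adaptor towards RAS, fell by 0.19 (adjusted p = 0.00175, edgeR). HSP90AA1, one of the chaperones, rose by 0.18 (adjusted p = 0.00161, edgeR). With GC correction 2 were higher and 2 lower, beside 15.2% of all genes, with ERBB3 still lower (adjusted p = 0.0316, edgeR), HSP90AA1 still higher (0.0104) and SHC1 short of the threshold (0.202). Per kilobase of deposited gene length ERBB2 was 10th of these 12 genes and EGFR, at 34.0 ± 1.30 CPM per kilobase, was 6th.

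GRB7 was scarce, with 77, 75, 65 and 71 counts in the c-di-GMP libraries, against 119, 86 and 102 counts in vehicle replicates 1, 2 and 4. On the CPM scale these were 4.76, 4.36, 3.67 and 4.04 with c-di-GMP, against 6.76, 4.75 and 5.84 with vehicle. The groups overlap, since c-di-GMP replicate 1 lies just above vehicle replicate 2. GRB7 had a log2 fold change of -0.46 ± 0.14 (adjusted p = 0.0177, edgeR). With GC correction it missed the threshold (-0.25 ± 0.14, adjusted p = 0.243, edgeR), as it did in all 3 fits on log2 FPKM (adjusted p = 0.0679 to 0.0782, limma). It passed in 11 of 25 alternatives. Without vehicle replicate 1 the adjusted p was 0.141, and without c-di-GMP replicate 3 it was 0.0614 (edgeR).

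MIEN1, a small membrane-anchored protein linked to migration, had 16.5, 16.6, 17.8 and 16.8 CPM in the c-di-GMP libraries, against 13.5, 16.0 and 14.3 CPM in vehicle replicates 1, 2 and 4. All c-di-GMP libraries lie above these vehicle libraries, with vehicle replicate 2 close to them. The log2 fold change was 0.21 ± 0.08 (adjusted p = 0.0535, edgeR), just short of the threshold. Vehicle replicate 3 had 1224 counts of MIEN1, against 238, 290 and 249 in the other vehicle libraries. With all 8 libraries the log2 fold change was -1.23 ± 0.74 (adjusted p = 0.623, edgeR). ERBB2, with which it shares exon bases, had a fold change of the opposite sign in the 7 libraries.

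STARD3 had 53.0, 47.9, 52.3 and 51.2 CPM in the c-di-GMP libraries, against 58.3, 54.6 and 55.1 CPM in vehicle replicates 1, 2 and 4. The groups do not overlap, but the log2 fold change of -0.13 ± 0.05 missed the threshold (adjusted p = 0.0675, edgeR). With GC correction it was 0.06 ± 0.05 (adjusted p = 0.483, edgeR).

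ORMDL3 had 30.3, 25.9, 28.7 and 26.7 CPM in the c-di-GMP libraries, against 34.7, 34.3 and 34.4 CPM in vehicle replicates 1, 2 and 4. The vehicle libraries lie close together and above every c-di-GMP library. The means were 27.9 ± 1.97 CPM with c-di-GMP (SD, n = 4) and 34.4 ± 0.23 CPM with vehicle (SD, n = 3). The log2 fold change was -0.30 ± 0.06 (SE; 95% interval -0.44 to -0.17; adjusted p = 8.43e-04, edgeR). ORMDL3 was the one gene of the 10 past the threshold in all 25 alternatives of the 7 libraries, with adjusted p between 7.23e-04 and 0.0497. With all 8 libraries, in which vehicle replicate 3 had 74.8 CPM, the log2 fold change was -0.71 ± 0.30 (adjusted p = 0.623, edgeR).

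The lipid partners of STARD3 and ORMDL3 gave 4 higher and 0 lower of 12 tested in the 7 libraries, with a median log2 fold change of 0.13. Of all genes, 13.5% were called higher and 16.2% lower. ORMDL1, a paralogue of ORMDL3, averaged 45.7 ± 1.03 CPM with c-di-GMP and 38.2 ± 1.29 CPM with vehicle (log2 fold change 0.26 ± 0.06, adjusted p = 0.00122, edgeR). ORMDL2, the third paralogue, had a log2 fold change of 0.20 ± 0.09 (adjusted p = 0.122, edgeR). With GC correction ORMDL1 was at 0.11 ± 0.05 (adjusted p = 0.142, edgeR). NPC2, a lysosomal cholesterol carrier, rose by 0.21 (adjusted p = 0.00185, edgeR) and by 0.14 with GC correction (adjusted p = 0.0185, edgeR). It was the 1 of 12 called with that correction, beside 15.2% of all genes. STARD3NL and SPTLC1 rose by 0.18 and 0.14 without it (adjusted p = 0.0158 and 0.0354, edgeR).

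MED1 and MED24, the Mediator subunits, both missed the threshold. MED1 had 107.8, 121.7, 111.1 and 113.1 CPM in the c-di-GMP libraries, against 113.4, 111.7 and 117.0 CPM in vehicle replicates 1, 2 and 4. The groups overlap and the log2 fold change was -0.01 ± 0.05 (adjusted p = 0.930, edgeR). MED24 had 97.9, 94.8, 94.8 and 92.2 CPM in the c-di-GMP libraries, against 112.3, 100.6 and 98.1 CPM in the same vehicle libraries. The groups are separated only narrowly, and the log2 fold change was -0.13 ± 0.05 (adjusted p = 0.0517, edgeR). With GC correction MED24 was at 0.00 ± 0.04 (adjusted p = 0.966, edgeR). Of 31 other Mediator subunits 5 were higher and 2 lower in the 7 libraries, beside 29.6% of all genes called, with a median log2 fold change of 0.06. MED10 and CCNC rose by 0.30 and 0.27, whereas MED25 and MED16 fell by 0.28 and 0.26 (adjusted p = 0.00136, 0.00151, 0.00127 and 0.00175, edgeR). With GC correction 2 were higher and 0 lower, beside 15.2% of all genes, and of these 4 MED10 alone was called (log2 fold change 0.25 ± 0.06, adjusted p = 0.00589, edgeR).

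MSL1 had 95.3, 98.4, 97.9 and 101.0 CPM in the c-di-GMP libraries, against 105.4, 104.9 and 107.9 CPM in vehicle replicates 1, 2 and 4. Every c-di-GMP library lies below these vehicle libraries. The log2 fold change was -0.11 ± 0.04 (adjusted p = 0.0552, edgeR), and with GC correction -0.12 ± 0.04 (adjusted p = 0.0269, edgeR). None of its 3 partners was called without the correction, and MSL2, a ubiquitin ligase of the complex, was lower with it (-0.21 ± 0.06, adjusted p = 0.0113, edgeR). With gene length corrected as well, MSL1 missed the threshold (-0.09 ± 0.03, adjusted p = 0.0986, edgeR). With all 8 libraries, in which vehicle replicate 3 had 52.5 CPM, MSL1 was at 0.07 ± 0.21 (adjusted p = 0.898, edgeR).

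CASC3 had 119.2, 129.6, 124.5 and 120.1 CPM in the c-di-GMP libraries, against 124.8, 123.7 and 120.8 CPM in vehicle replicates 1, 2 and 4. The groups overlap and the log2 fold change was 0.00 ± 0.04 (adjusted p = 0.965, edgeR). Of its 14 partners in the exon junction complex and nonsense-mediated decay, 2 were higher and 2 lower, near the 29.6% of all genes called, with a median log2 fold change of 0.07. UPF1, the helicase of that decay, and SMG6, its endonuclease, fell by 0.25 and 0.14 (adjusted p = 2.45e-04 and 0.0369, edgeR). RBM8A and MAGOHB, core proteins of the complex, rose by 0.18 and 0.27 (adjusted p = 0.00669 and 0.0342, edgeR). With GC correction 0 of the 14 were called by edgeR.

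Fold changes in the 7 libraries followed the GC content of transcripts over all genes. The median log2 fold change was 0.03 for genes of 45 to 50% GC, -0.07 for 50 to 55% and -0.15 for 55 to 60%. GRB7 (59.9% GC), STARD3 (59.2%), ERBB2 (57.5%) and MED24 (56.7%) all fall in the last of these. Of the genes in its own class, 26.9% had a lower log2 fold change than ERBB2, 7.03% a lower one than GRB7 and 11.1% a lower one than ORMDL3. MIEN1, at 54.8% GC, lay above 92.0% of its class and PSMD3 above 60.7%. Whether the GC trend is technical was not tested.

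**Figure D3:**
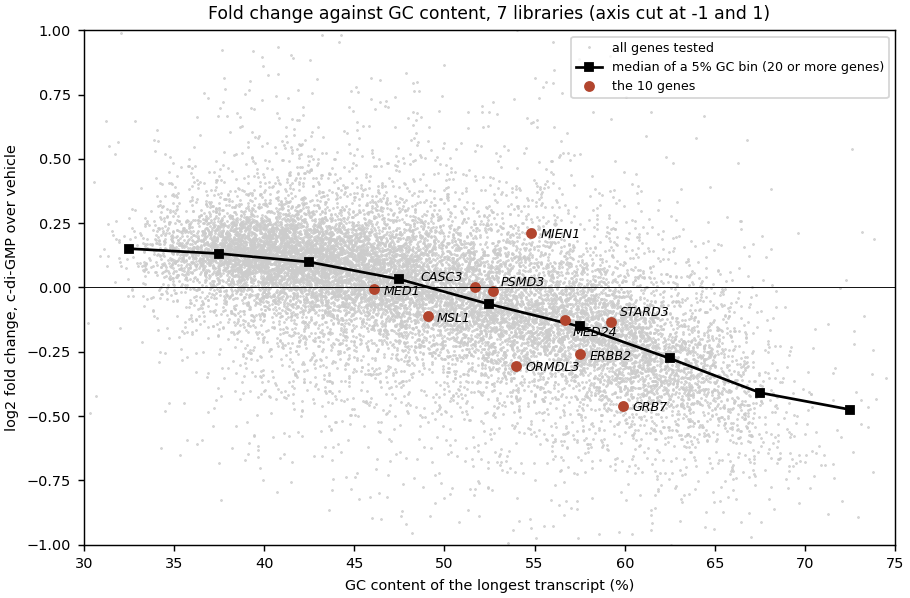
Log2 fold change in the 7 libraries (vertical axis, limited to -1 to 1) against the GC content of the longest transcript in percent; grey points are all genes tested, squares the medians of 5% classes, and red points the 10 genes. The medians descend with GC content, MED24 and STARD3 lie near the line, ERBB2, ORMDL3 and GRB7 lie below it, and MIEN1 lies above it.

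With a GC trend removed from each library, 1 of the 10 genes was called higher and 3 lower, beside 15.2% of all genes called, 8.58% higher and 6.62% lower. MIEN1 averaged 17.3 ± 0.59 corrected CPM with c-di-GMP and 14.0 ± 1.62 with vehicle (log2 fold change 0.30 ± 0.08, adjusted p = 0.0107, edgeR). ORMDL3 averaged 28.5 ± 1.98 corrected CPM with c-di-GMP and 33.3 ± 0.75 with vehicle (-0.23 ± 0.06, adjusted p = 0.0101, edgeR). ERBB2 averaged 93.3 ± 1.16 corrected CPM with c-di-GMP and 100.7 ± 2.44 with vehicle (-0.11 ± 0.04, adjusted p = 0.0327, edgeR). The corrected CPM of the groups did not overlap for 4 of the 10, namely MIEN1, MSL1, ERBB2 and ORMDL3, beside 23.5% of all genes, 12.8% higher and 10.6% lower. With each library left out in turn, ORMDL3 stayed past the threshold in 7 of 7 corrected fits, MIEN1 in 6, MSL1 in 3 and ERBB2 in 2. ERBB2 missed it without vehicle replicate 1, 2 or 4 and without c-di-GMP replicate 1 or 4, with adjusted p up to 0.168 (edgeR). MSL1 missed it without vehicle replicate 1 or 4 and without c-di-GMP replicate 1 or 3, with adjusted p up to 0.140 (edgeR), and MIEN1 without vehicle replicate 1 (0.0999). With gene length corrected as well, ORMDL3 (-0.25, adjusted p = 0.00385, edgeR) and MIEN1 (0.24, adjusted p = 0.0382, edgeR) were called, and ERBB2 was not (-0.06, adjusted p = 0.259, edgeR).

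Setting each gene against PSMD3 within a library needs no scaling between libraries. The log2 ratio of ERBB2 to PSMD3 per kilobase was -2.44, -2.44, -2.41 and -2.44 in the c-di-GMP libraries, against -2.13, -2.21, -2.25 and -2.22 in vehicle replicates 1 to 4. The groups do not overlap even with vehicle replicate 3 included. ORMDL3 had -2.56, -2.76, -2.62 and -2.69 in the c-di-GMP libraries, against -2.41, -2.34, -0.72 and -2.33 in the vehicle libraries. GRB7 and STARD3 were also lower in every c-di-GMP library than in every vehicle library, which makes 4 of 9 genes. Over all genes the ratio to PSMD3 was without overlap for 13.2%, lower for 9.52% and higher for 3.68%. MIEN1 was higher in the 7 libraries, but vehicle replicate 3 stood at 0.54, against -3.06, -2.73 and -2.89 in the other vehicle libraries. These ratios carry no GC correction, and ERBB2, ORMDL3, GRB7 and STARD3 all have a higher GC content than PSMD3 (52.7%). With GC correction in the 7 libraries the log2 fold changes were -0.11 for ERBB2, -0.23 for ORMDL3 and -0.25 for GRB7. STARD3 was at 0.06 there and PSMD3 at 0.05.

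Vehicle replicate 3 had different effects on the 10 genes. Its CPM over the mean of the other vehicle libraries was 7.93 for MIEN1, 2.30 for ORMDL3, 2.04 for STARD3 and 1.39 for GRB7. It was 0.938 for CASC3, 0.738 for PSMD3, 0.705 for ERBB2, 0.526 for MSL1, 0.434 for MED24 and 0.394 for MED1. The 4 genes above 1 include the shortest 3 of the 10, and the part of gene length or RNA quality in this was not tested.

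**Figure D4:**
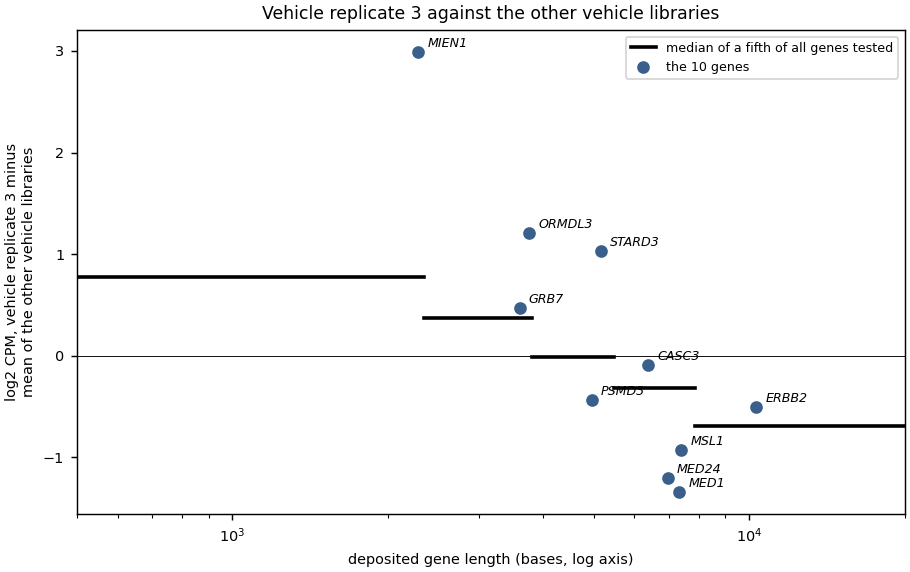
Log2 CPM of vehicle replicate 3 minus the mean of the other vehicle libraries against deposited gene length in bases on a log axis; lines are medians of 5 equal classes of all genes tested, and points are the 10 genes. MIEN1, the shortest, lies highest (2.99), and MED1 (-1.34) and MED24 (-1.20) lie lowest.

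Other genes of the interval were also read. Of 46 neighbours tested within 1000000 bases of the span, 5 were higher and 10 lower in the 7 libraries, beside 13.5% and 16.2% of all genes, with a median log2 fold change of -0.11. With GC correction 5 were higher and 2 lower, beside 8.58% and 6.62% of all genes, and the median was -0.01. Between MED1 and CASC3, 0 of 8 tested were higher and 1 lower with the correction, beside the same 8.58% and 6.62%. Without the correction 0 were higher and 3 lower, beside 13.5% and 16.2% of all genes. CSF3, the granulocyte colony-stimulating factor gene beside PSMD3, averaged 37.8 ± 3.73 CPM with c-di-GMP and 51.6 ± 4.49 CPM with vehicle (-0.45 ± 0.07, adjusted p = 3.87e-05, edgeR). It was also lower with GC correction (-0.24 ± 0.06, adjusted p = 0.00843, edgeR). THRA, a thyroid hormone receptor gene, and NR1D1, a clock repressor gene, fell by 0.31 and 0.35 (adjusted p = 2.15e-04 and 0.00124, edgeR) and missed the threshold with GC correction (adjusted p = 0.185 and 0.174, edgeR). Further out ARHGAP23 fell by 0.44, EPOP by 0.37 and MLLT6 by 0.27 (adjusted p = 1.78e-06, 1.1e-04 and 1.41e-04, edgeR). Of these 3, ARHGAP23 alone was called with GC correction (-0.12 ± 0.03, adjusted p = 0.0147, edgeR).

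**Figure D5:**
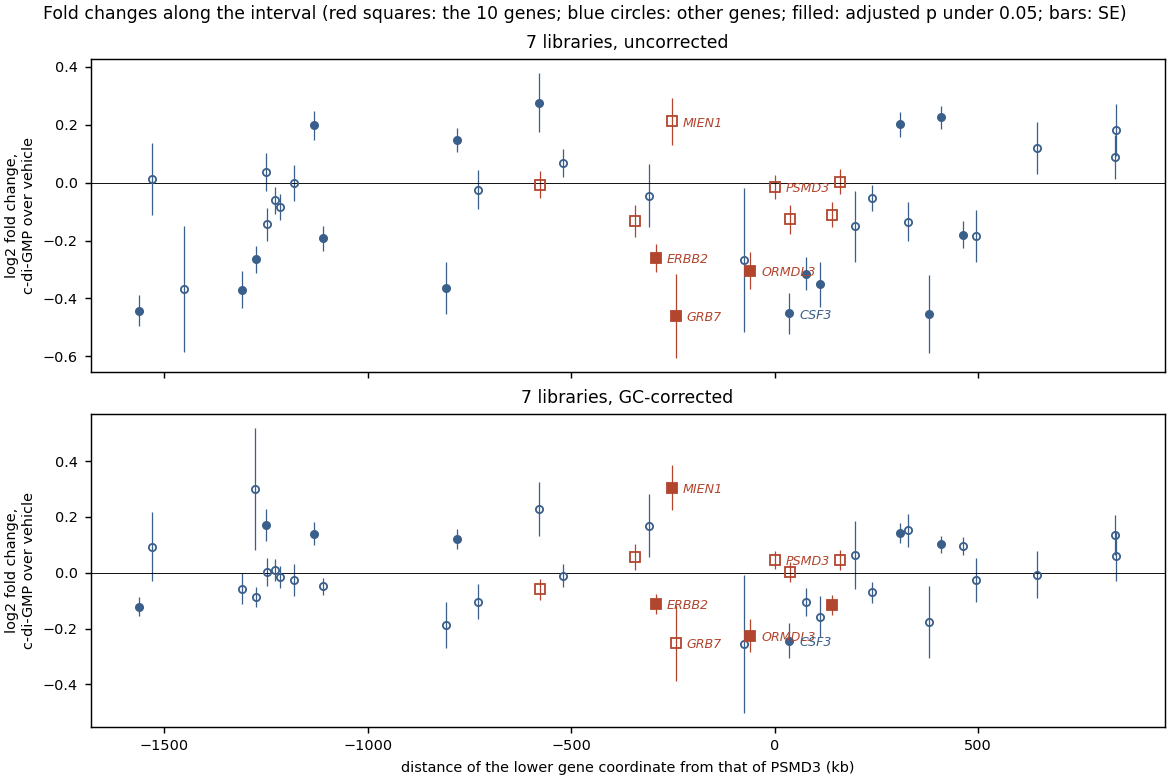
Log2 fold change, c-di-GMP over vehicle, of the 10 genes (red squares) and other genes (blue circles) by distance from PSMD3 in kilobases, without (top) and with (bottom) GC correction; filled symbols have adjusted p under 0.05 and bars are SE. PSMD3 stays near 0 in both panels, while ERBB2, ORMDL3 and CSF3 lie below 0 in both.

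STARD13, POFUT1 and SLC35E1 were among the 5 genes whose profile over the 8 libraries was most like that of PSMD3. Likeness was the root mean square difference of log2 CPM after centring each gene, over 8 libraries and 12227 protein-coding genes. It was 0.0266 for STARD13, 0.0289 for POFUT1 and 0.0305 for SLC35E1, with a median of 0.354 over all genes compared. ERBB2 ranked 1049th at 0.118, CASC3 1061st at 0.119 and MIEN1 11729th at 1.10. All these profiles include vehicle replicate 3.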

How the data were processed

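RNA of 8 MDA-MB-231 libraries was sequenced after preparation with a NEBNext Ultra RNA kit, per the labels' protocols. DESeq2 1.20.0, featureCounts 1.5.0-p3, HISAT2 2.0.5, CASAVA 1.8 and fastp are listed without roles, per the submitters' processing notes, which also name a mouse build. The identifiers are human, and all 18059 listed genes have their GENCODE v29 coordinates. The authors deposited whole read counts per gene and FPKM values. Counts were used for every main test and for the levels, and FPKM for a second look at the order of levels and for alternatives.

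Genes passed filterByExpr (minimum count 10, minimum total 15), were scaled by TMM and were tested by quasi-likelihood (edgeR 4.0.16, R version 4.3.3), with Benjamini-Hochberg adjustment over all genes and a threshold of 0.05. The fit was run on all 8 libraries and on 7 without vehicle replicate 3. GC correction used a lowess offset (span 0.3) per library. Alternatives used DESeq2 1.42.0, limma 3.58.1, log2 FPKM with pseudocounts of 1 and 0.1, other scalings, blocking by replicate number, and fits that drop 1 library at a time. The fits were tested on simulated data. The simulated libraries held no GC trend and none that stood apart. Named genes are the 10, up to 4 called genes of smallest p per list, called genes between MED1 and CASC3, and the 5 most like PSMD3, of which some are not reported here. The genes and lists were chosen with earlier results of these data known. Intervals cover the model's error only. Proteins were not analysed here.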

Additional observations from a re-analysis of the deposited data

Results flagged for a closer look

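In each group of 4 libraries, a library was picked out when its gap to the nearest other exceeded 0.829 of the group's range. This was examined in 38 groups, of which 12 held such a library, 10 of them through vehicle replicate 3. Chance picks out about 1 group in 20.

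In vehicle replicate 3 the CPM was high for MIEN1 (109), STARD3 (108) and ORMDL3 (74.8), and low for MSL1 (52.5) and MED1 (42.3). Its log2 ratio to PSMD3 per kilobase was high for MIEN1 (0.54), STARD3 (-0.65) and ORMDL3 (-0.72). The same ratio was low there for MED24 (-2.43) and MED1 (-2.51).

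Among the c-di-GMP libraries, replicate 3 had the highest ratio of ERBB2 to PSMD3 (-2.41), and replicate 2 the lowest ratio of STARD3 to PSMD3 (-2.34).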

How the results depend on the processing

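With all 8 libraries the number of genes called among the 10 was 0 to 3 with each library left out, with 3 only without vehicle replicate 3. With 7 libraries it was 3, and 2 to 5 with each library left out. GC correction with each library left out gave 1 to 4. In the 7 libraries, MIEN1 was gained without vehicle replicate 2 (adjusted p = 0.0190, edgeR), MSL1 without vehicle replicate 1 (0.0434), and MED24 without vehicle replicate 2 (0.0352) or 4 (0.0268). MIEN1 was also gained in the 3 fits on log2 FPKM (adjusted p = 0.0288 to 0.0410, limma), and MED24 with library totals (0.0478) and without the filter (0.0460).

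Several signs turned. With 8 libraries, CASC3 was -0.0042 with GC and length correction. With each library left out, log2 fold changes ranged from -0.0144 to 0.144 for PSMD3, -0.13 to 0.23 for MED24, -0.007 to 0.337 for MED1, -0.11 to 0.15 for MSL1 and -1.52 to 0.21 for MIEN1. Of these fits, only the one without vehicle replicate 3 turned the signs of these genes. With 7 libraries and each left out, log2 fold changes ranged from -0.0331 to 0.0166 for PSMD3, -0.0428 to 0.0093 for MED1 and -0.0215 to 0.0133 for CASC3. Without the filter CASC3 was -7e-04. GC correction gave 0.0457 for PSMD3, 0.0035 for MED24 and 0.0564 for STARD3, and with length 0.0463, 0.0274 and 0.0592. Log2 FPKM gave 0.0042 for PSMD3 and 0.0091 for MED1, or 0.0096 with the pseudocount 0.1. The cause was not tested.

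With the replicate block, 3 of the 10 were called in the 7 libraries and 0 in all 8, with MED1 at 0.0019 and CASC3 at -0.0019 in the 7. Deviations of same-numbered libraries correlated at 0.015, -0.009 and 0.005 in the 7 libraries, and at 0, 0.184, 0.123 and -0.058 in all 8. Not every pair exceeded 0.1, so the numbers were not taken to pair them. The block called 4093 genes, against 4633 without it.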
